A study of Mus musculus with 6 samples.

Results

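Arrays of 4TO7 cells that overexpress Six2 were set against arrays of empty-vector 4TO7 cells for 10 mouse genes of the integrated stress response. The genes were Atf4, Atf5, Ddit3, Trib3, Ddit4, Sesn2, Chac1, Asns, Psat1 and Phgdh, which are 10 of the 20848 genes that the array table names. They were taken from the table by name, as the 65 of 241576 probe sets whose annotation gives one of these symbols alone. Each probe set is a row of the table and mostly covers a part of a gene. 4TO7 is a mouse mammary tumour cell line. The control group held 3 arrays of cells transduced with pcDNA, and the Six2 group held 3 arrays of cells transduced for overexpression of the homeobox transcription factor Six2. Both groups are the same line, and no further treatment, time point or allele is given for either. The labels do not say which species or stretch of Six2 was inserted, nor whether the cells were clones or pools.

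The integrated stress response is a signalling pathway in which several kinases phosphorylate the translation factor eIF2 when amino acids are short, when unfolded protein collects in the endoplasmic reticulum, or during other stress. General translation then slows, while the mRNA of the transcription factor ATF4 is translated more, through upstream reading frames in its leader. ATF4 protein, often together with C/EBP partners, raises genes for amino acid synthesis, transport and redox balance, so the Atf4 mRNA level and the activity of ATF4 protein are separate quantities, and the arrays measured mRNA only. In tumour cells the pathway is known for supporting growth when nutrients are limited, and, through CHOP (Ddit3), for cell death under lasting stress.

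ATF4 and its partners bind composite elements known as C/EBP-ATF response elements, whose core is commonly written TGATGNAA. All 10 genes matched a promoter window in RefSeq (GRCm38.p6), each of 250 bases before and 50 bases after an annotated gene start, with 2 windows each for Atf5 and Psat1. The core was searched on both strands of all 12 windows, and it lay in 3 of them, those of Chac1, Trib3 and Asns. Of all 32851 windows in the table, 3.97% held it. The 3 windows are shown because they hold these letters. Their genes all fell in Six2 arrays, which was known when the windows were shown. Atf5 and Ddit4 fell too and had no match. Whether a match goes with a fall was not tested. The windows are written in the direction of the gene, the start is base 251, and capitals mark the match.
Chac1: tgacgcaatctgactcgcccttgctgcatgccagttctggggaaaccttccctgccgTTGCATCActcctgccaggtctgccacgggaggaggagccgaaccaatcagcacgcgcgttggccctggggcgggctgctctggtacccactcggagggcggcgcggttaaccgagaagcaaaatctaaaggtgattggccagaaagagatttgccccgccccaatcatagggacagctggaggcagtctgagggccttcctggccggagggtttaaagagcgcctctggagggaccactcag
Trib3: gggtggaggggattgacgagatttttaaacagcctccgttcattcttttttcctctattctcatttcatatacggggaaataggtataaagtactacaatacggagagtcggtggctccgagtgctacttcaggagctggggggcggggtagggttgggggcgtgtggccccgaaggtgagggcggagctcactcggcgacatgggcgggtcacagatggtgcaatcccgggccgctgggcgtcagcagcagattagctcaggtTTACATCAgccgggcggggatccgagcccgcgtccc
Asns: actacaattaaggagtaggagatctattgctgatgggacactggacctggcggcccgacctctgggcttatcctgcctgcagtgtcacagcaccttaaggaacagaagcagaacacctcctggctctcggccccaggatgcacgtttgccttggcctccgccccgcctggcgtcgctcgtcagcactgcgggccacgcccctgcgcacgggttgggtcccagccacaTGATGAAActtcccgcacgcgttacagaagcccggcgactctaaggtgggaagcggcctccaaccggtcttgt

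The Chac1 window is chr2:119350992-119351291 on the plus strand, and its match, on the opposite strand, begins at position -193 from the start. The Trib3 window is chr2:152344011-152344310 on the minus strand, and its match begins at position 14 from it, on the opposite strand. The Asns window is chr6:7693160-7693459 on the minus strand, and its match begins at position -23, on the strand of the gene. The narrower form TGATGCAA was in 1 of the 10 genes, Chac1, against 1.03% of all 27025 genes with a window and 0.895% of all windows. A match describes letters in a window and is not a measured binding site, and the other windows lack only these letters.

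Of the 10 genes, 5 fell and 1 rose. Atf5, Trib3, Ddit4, Chac1 and Asns were lower in Six2 arrays, by between 1.46-fold for Asns and 2.21-fold for Chac1, and Ddit3 was 1.49-fold higher. Atf4 itself differed by 0.057 on the log2 scale and did not pass, and Sesn2, Psat1 and Phgdh did not pass either. Values are log2 RMA values, a gene is the median over its probe sets on each array, and a difference is Six2 minus control. The call rule was a limma p (a linear model with moderated variances) that stayed under 0.05 after Benjamini-Hochberg adjustment across the whole gene table. Over all 20848 genes, 14.7% were called, 6.70% higher and 8.02% lower. All 10 genes had a mean above 6, and among the 8974 genes with such a mean 24.6% were called, 12.2% higher and 12.4% lower. Each array measured RNA of many cells together, so less RNA per cell and fewer cells with the RNA cannot be told apart.

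**Figure D1:**
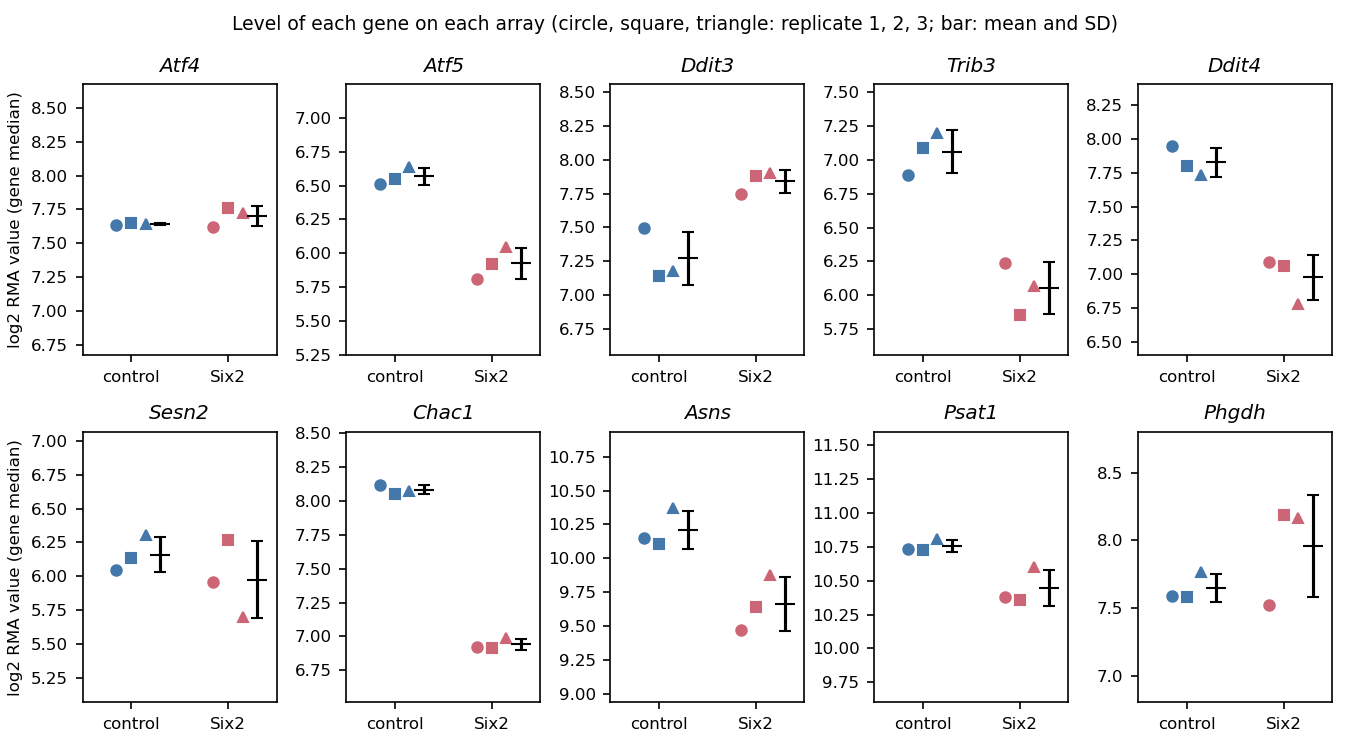
Log2 RMA level of each of the 10 genes (vertical axes, each spanning 2 log2 units) on the 3 control arrays (blue) and 3 Six2 arrays (red), with symbols for the replicate number and a bar for mean and SD. The groups are farthest apart, relative to their spread, for Chac1, and they overlap for Atf4, Sesn2 and Phgdh.

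The groups did not overlap for 7 of the 10 genes. Every Six2 array was below every control array for Atf5, Trib3, Ddit4, Chac1, Asns and Psat1, a pattern found in 20.1% of all genes and in 27.4% of the genes with a mean above 6. Every Six2 array was above every control array for Ddit3, a pattern found in 15.7% of all genes and 27.7% of those with a mean above 6. The median difference of the 10 genes was -0.43, against -0.046 over all genes.

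Among the transcription factors, the 3 genes did 3 different things. Atf4 encodes the central factor of the pathway. Its level on the control arrays was 7.64, 7.65 and 7.65, and on the Six2 arrays 7.62, 7.76 and 7.72. The Six2 values lay on both sides of the control values, and the difference was 0.057 (SE 0.085, 95% confidence interval -0.14 to 0.26, limma adjusted p = 0.709). The gene value was that of the probe set 10425369 on each array, and the sign of the difference turned when probe sets were averaged (-0.081), with the brightest of them (-0.20) and with dim probe sets left out (-0.094), none of which passed. The 5 probe sets of Atf4 ranged from -0.21 to 0.13, with 2 above 0 and 3 below, and none passed over all rows. The brightest was at 11.02 in control and 10.83 in Six2 arrays. The next brightest, 10425368, was at 10.84 and 10.66 (-0.18, limma adjusted p = 0.404). In it alone every Six2 array was below every control array.

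Atf5, a relative of Atf4 whose mRNA is also translated under eIF2 phosphorylation, fell by 0.64 on the log2 scale. Its control arrays were at 6.51, 6.55 and 6.64, and its Six2 arrays at 5.81, 5.92 and 6.04. The highest Six2 array was thus well below the lowest control array (SE 0.098, limma adjusted p = 0.00741). All 4 probe sets had a lower mean in Six2 arrays, from -0.69 to -0.48, though none passed over all rows. In 2 of the 4 every Six2 array was below every control array. The groups overlapped in the brightest, 10562908, which alone gave -0.49 and missed the threshold (limma adjusted p = 0.180).

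Ddit3, which encodes CHOP, was the only one of the 10 that rose. Its control arrays were at 7.50, 7.14 and 7.17, and its Six2 arrays at 7.74, 7.88 and 7.90. The control array of replicate 1 lay nearest to the Six2 arrays, 0.25 below the lowest of them. The difference was 0.57 (SE 0.12, limma adjusted p = 0.0233), and the 3 probe sets gave 0.58, 0.51 and 0.47, none of which passed over all rows. In 2 of the 3 every Six2 array was above every control array, and in the brightest, 10366882, the groups overlapped. The call of the gene was lost in 8 of 15 alternatives, where the difference stayed between 0.40 and 0.57. It was lost without control replicate 2 (limma adjusted p = 0.0833) or 3 (limma adjusted p = 0.0705) and without Six2 replicate 2 (limma adjusted p = 0.0732) or 3 (limma adjusted p = 0.0628). Ddit3 lies on chromosome 10, where the median difference of 451 genes with a mean above 6 was 0.17. With that median subtracted, Ddit3 was at 0.40 (limma adjusted p = 0.0871).

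**Figure D2:**
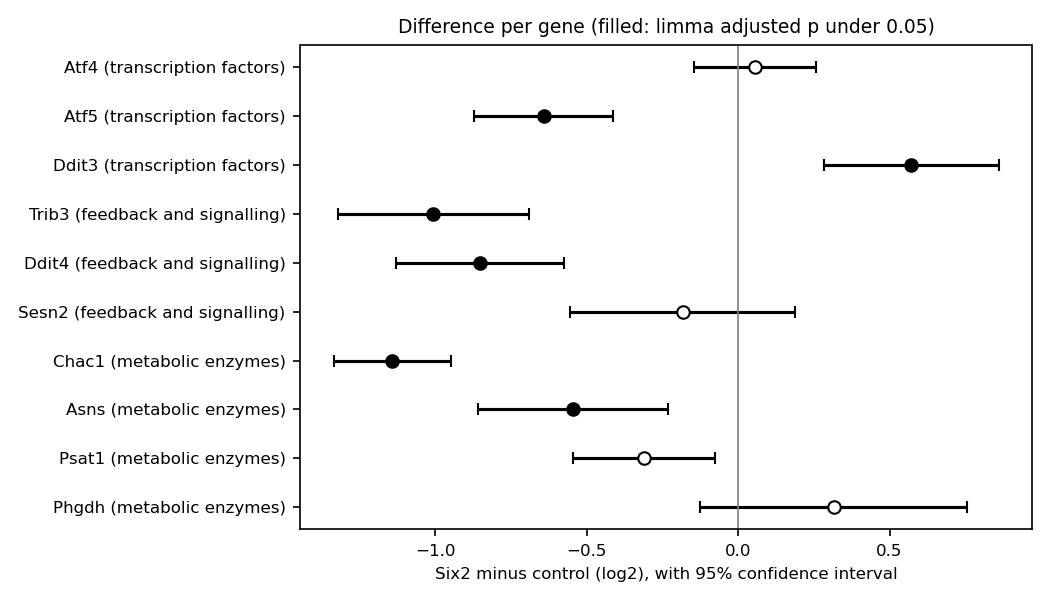
Difference of each gene, Six2 minus control on the log2 scale (horizontal axis), with its 95% confidence interval from limma. Filled points passed the threshold, and they run from -1.14 for Chac1 to 0.57 for Ddit3.

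Of the genes that feed back on the pathway or restrain mTORC1, the kinase complex that drives growth, Trib3 and Ddit4 fell and Sesn2 did not pass. Trib3 encodes a pseudokinase that ATF4 and CHOP induce and that in turn dampens ATF4. Its control arrays were at 6.89, 7.09 and 7.20, and its Six2 arrays at 6.24, 5.85 and 6.07. No Six2 array came within 0.65 of a control array, and the difference was -1.01 (SE 0.13, limma adjusted p = 0.00464). In all 8 probe sets every Six2 array was below every control array, and 4 of the 8 passed over all rows. They spread from -1.89 for the probe set 10488610 (limma adjusted p = 0.0132) to -0.55 for 10488615 (limma adjusted p = 0.108), and the brightest, 10488611, was at -1.57 (limma adjusted p = 0.0182). The test that compares each probe set with the others of its gene gave Trib3 an unadjusted p of 0.0183 and an adjusted p of 0.263.

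Ddit4 encodes REDD1, a stress-induced inhibitor of mTORC1. Its control arrays were at 7.95, 7.80 and 7.73, and its Six2 arrays at 7.09, 7.06 and 6.78. The lowest value was that of Six2 replicate 3, and the difference was -0.85 (SE 0.12, limma adjusted p = 0.00533). In all 4 probe sets every Six2 array was below every control array, with differences from -0.99 to -0.59, and 2 of the 4 passed over all rows. Ddit4 lies on the same chromosome as Ddit3 and moved the other way, and it was at -1.02 with the chromosome median subtracted (limma adjusted p = 0.00342). Taken from the brightest probe set only, its difference was -0.93 and just missed the threshold (limma adjusted p = 0.0521).

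Sesn2, a leucine-binding inhibitor of mTORC1, was at 6.04, 6.13 and 6.30 on control arrays and at 5.96, 6.27 and 5.70 on Six2 arrays. The groups overlapped, with Six2 replicate 2 above 2 of the control arrays. The difference was -0.18 (SE 0.16, 95% confidence interval -0.56 to 0.19, limma adjusted p = 0.491). Its 10 probe sets ranged from -0.81 to 0.30. In 2 of them, 10516937 (-0.76) and 10516938 (-0.81), every Six2 array was below every control array, and neither passed over all rows.

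Of the enzymes, Chac1 and Asns fell, and both genes of serine synthesis did not pass. Chac1 encodes a gamma-glutamyl cyclotransferase that degrades glutathione and is a well-known ATF4 target. Its control arrays were at 8.12, 8.05 and 8.08, and its Six2 arrays at 6.92, 6.91 and 6.99. Both groups were tight, with SDs of 0.033 and 0.040, and the difference was -1.14 (SE 0.082, limma adjusted p = 0.000545). This was the smallest p of the 10 genes and ranked 80 among all genes. In 3 of its 4 probe sets every Six2 array was below every control array, with differences of -1.13, -1.09 and -1.06, of which the first 2 passed over all rows. The dimmest, 10474973, was at -0.49 with overlapping groups. The brightest alone, 10474975, was at -1.06 and just missed the threshold in the gene-level test (limma adjusted p = 0.0529).

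Asns, which encodes asparagine synthetase, was at 10.15, 10.10 and 10.37 on control arrays and at 9.47, 9.64 and 9.87 on Six2 arrays. The nearest arrays of the groups were 0.23 apart, and the difference was -0.54 (SE 0.13, limma adjusted p = 0.0365). The mean of every one of its 12 probe sets was lower in Six2 arrays, from -0.79 to -0.30, the groups did not overlap in 11 of them, and 2 passed over all rows. The call of the gene was lost in 7 of 15 alternatives, where the difference stayed between -0.60 and -0.45. It was lost without control replicate 1 (limma adjusted p = 0.0870), 2 (limma adjusted p = 0.0757) or 3 (limma adjusted p = 0.0973) and without Six2 replicate 1 (limma adjusted p = 0.0969) or 2 (limma adjusted p = 0.0975). With the median of chromosome 6 subtracted, it was at -0.47 (limma adjusted p = 0.0716).

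Psat1, the aminotransferase of serine synthesis, was at 10.74, 10.73 and 10.81 on control arrays and at 10.38, 10.36 and 10.60 on Six2 arrays. The groups did not overlap, but the difference of -0.31 (SE 0.100, 95% confidence interval -0.55 to -0.075) did not pass (limma adjusted p = 0.0827). Of its 11 probe sets, 10 had a lower mean in Six2 arrays and none passed over all rows. The gene passed when its probe sets were averaged (-0.28, limma adjusted p = 0.0276), with trend and robust variance (-0.31, limma adjusted p = 0.00904) and without Six2 replicate 3 (-0.39, limma adjusted p = 0.0472). Psat1 lies on chromosome 19, whose median was -0.18, and with that subtracted it was at -0.13 (limma adjusted p = 0.464).

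Phgdh, the first enzyme of serine synthesis, was at 7.58, 7.58 and 7.76 on control arrays and at 7.52, 8.19 and 8.17 on Six2 arrays. In this gene value, Six2 replicate 1 was below all control arrays and the other 2 were above them. Among the probe sets, Six2 replicate 1 was below all control arrays only in 10500533, at 5.34 against 5.88, 5.88 and 6.25. It was above every control array in 10500530 (5.51) and in the bright 10500531 (9.54) and 10500532 (9.75). In 10500531 alone every Six2 array was above every control array (0.24, limma adjusted p = 0.273). The gene difference of 0.32 (SE 0.19, 95% confidence interval -0.13 to 0.76) did not pass (limma adjusted p = 0.310). Without Six2 replicate 1 the gene difference was 0.53 and passed (limma adjusted p = 0.0372). Phgdh lies on chromosome 3, where the median difference of 419 genes was 0.37. With that median subtracted the sign turned, to -0.053 (limma adjusted p = 0.891).

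**Figure D3:**
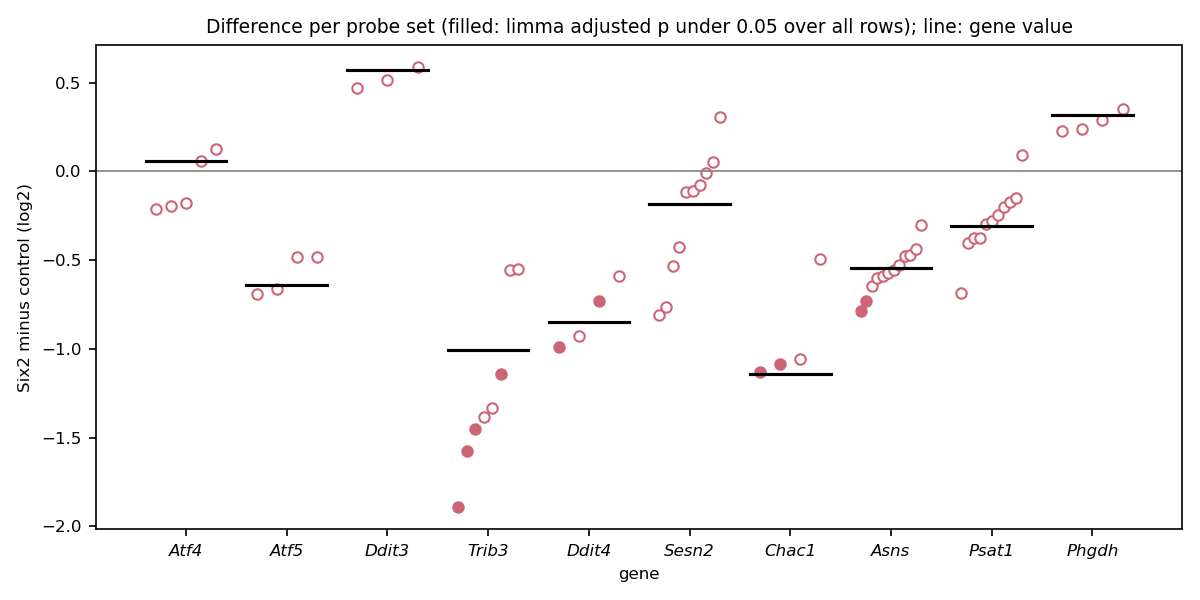
Difference of each of the 65 probe sets, Six2 minus control on the log2 scale (vertical axis), by gene, with filled points for those that passed over all 241576 rows and a line for the gene value. All points of Trib3, Ddit4, Chac1, Asns and Atf5 lie below 0, and all points of Ddit3 and Phgdh lie above it.

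Over the 65 probe sets, 10 fell and 0 rose past the threshold over all rows, against 2.80% of all probe sets called, 1.60% lower and 1.20% higher. Every Six2 array was below every control array in 38 of the 65, against 15.2% of all probe sets, and above in 3, against 14.6%. These shares are over all rows, dim ones included, and no share among probe sets of a like level was taken. Probe sets of a gene share its RNA and are not replicates. Without Six2 replicate 3, 2 of the 65 were called lower, and without any other array 0 were. Only 2 of the 65, 1 of Atf4 and 1 of Sesn2, were dim enough to be left out by the filter on dim rows. By limma, 0 of the 10 genes were called for unequal change among their probe sets, as were 0 of all genes tested. A test that called no gene cannot show that the probe sets of a gene changed alike. The genes tested were 18212, of which 0 (0%) were called, while 2822, among them Trib3 alone of the 10, had an unadjusted p under 0.05.

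**Figure D4:**
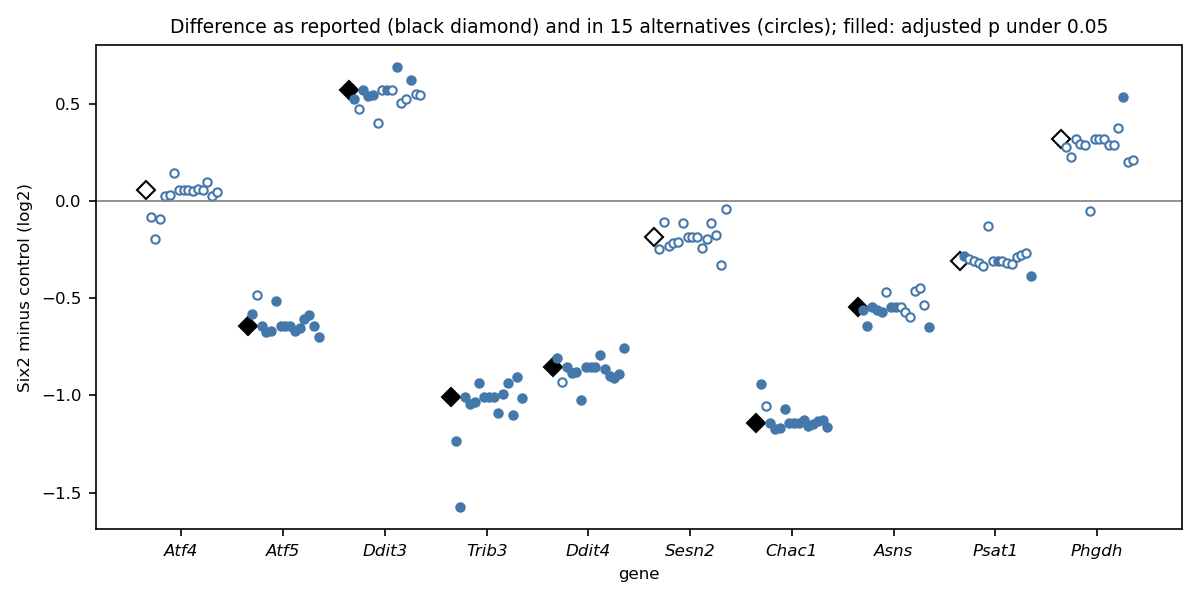
Difference of each gene as reported (black diamond) and in each of 15 alternative settings (circles), Six2 minus control on the log2 scale, filled where the adjusted p was under 0.05. Trib3 is filled throughout, Atf5, Ddit4 and Chac1 in all but 1 alternative, and Atf4 and Phgdh have circles on both sides of 0.

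The other genes of the pathway were taken from 8 lists of 84 genes. Of these, 5 (5.95%) rose and 21 (25%) fell, and the median difference was -0.14, against -0.046 over all genes. Over all genes 6.70% rose and 8.02% fell. Of the 84, 75 had a control mean above 6, and among genes with a mean above 6 over all arrays 12.2% rose and 12.4% fell. These shares are the background for each list's counts below. The calls of 10 of the 26, all lower, held in every alternative. Genes that passed were named by the smallest p, up to 3 per direction in each list, and genes that did not pass were named outside that rule, for their role and after their values were seen.

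Upstream of ATF4, 2 of 8 genes for the eIF2 kinases, the phosphatase adaptors and the eIF2 machinery rose and 2 fell, with a median of -0.092. Eif2ak3 encodes PERK, the eIF2 kinase of the endoplasmic reticulum. It was at 7.97, 8.13 and 7.87 on control arrays and at 7.18, 7.38 and 7.05 on Six2 arrays. It thus fell, by 0.79 (SE 0.12, limma adjusted p = 0.00746), and the call held in all 15 alternatives. The other eIF2 kinases did not pass, at -0.036 for Eif2ak1, -0.15 for Eif2ak2 and 0.34 for Eif2ak4. Eif2b5, a subunit of the exchange factor that recharges eIF2, fell (-0.54, limma adjusted p = 0.0108), a call lost in 2 of 15 alternatives. Ppp1r15b, the constitutive adaptor of the eIF2 phosphatase, rose (0.52, limma adjusted p = 0.00960), and it lies on chromosome 1, with whose median subtracted it was at 0.083 (limma adjusted p = 0.595). Eif2s1, the phosphorylated subunit of eIF2, rose (0.36, limma adjusted p = 0.0315), a call lost in 9 of 15 alternatives, down to 0.14. The stress-induced adaptor Ppp1r15a, itself an ATF4 target, missed the threshold at -0.27 (limma adjusted p = 0.313).

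Of 8 partners of ATF4 and related leucine zipper factors, 0 rose and 5 fell, with a median of -0.51, where 12.4% of genes with a mean above 6 fell. Cebpb, a C/EBP factor that pairs with ATF4 and CHOP, was at 9.17, 9.18 and 9.21 on control arrays and at 8.61, 8.63 and 8.53 on Six2 arrays. Its arrays were tight and apart, and its difference of -0.60 (SE 0.083, limma adjusted p = 0.00533) held in every alternative. Jdp2, a Jun dimerization partner, fell by 0.77 on the log2 scale (limma adjusted p = 0.00399), and Nupr1, a stress-induced chromatin protein, fell by 0.65 (limma adjusted p = 0.0307). Jdp2 was lost with its brightest probe set, at -0.34 (limma adjusted p = 0.360). The call of Nupr1 was lost in 8 of 15 alternatives. The remaining falls, named because the list held only 5, were Cebpg (-0.43, limma adjusted p = 0.0355) and Atf3 (-0.64, limma adjusted p = 0.0485), lost in 9 and 5 of 15 alternatives.

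Beside Psat1 and Phgdh, 12 genes of serine, glycine, proline and one-carbon metabolism were measured, of which 1 rose and 3 fell, with a median of -0.019. Pycr1, the last enzyme of proline synthesis, fell most, from 6.71, 7.08 and 7.03 on control arrays to 5.38, 5.17 and 5.25 on Six2 arrays. Its difference of -1.67 (SE 0.13, limma adjusted p = 0.000591) was larger than that of any of the 10 members, and its call held in every alternative. With the brightest probe set it was at -0.96, a smaller difference than those of Trib3 (-1.57) and Chac1 (-1.06) in that setting. Aldh18a1, the first enzyme of proline synthesis, fell by 0.70 (limma adjusted p = 0.0160), a call lost in 6 of 15 alternatives. Cth, which makes cysteine from cystathionine, fell by 0.87 (limma adjusted p = 0.00764) and lies on chromosome 3, with whose median subtracted it was at -1.24. Shmt1, the cytosolic serine hydroxymethyltransferase, rose (0.48, limma adjusted p = 0.0355), a call lost in 8 of 15 alternatives. Psph, the last step of serine synthesis, was at 0.16 and Mthfd2, the mitochondrial folate enzyme, at 0.081, and neither passed.

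Of 9 amino acid transporters, 1 rose and 3 fell, with a median of -0.27. Slc6a9, a glycine transporter, fell from 10.63, 10.58 and 10.44 to 9.34, 9.26 and 9.23 (-1.28, SE 0.093, limma adjusted p = 0.000563). Slc7a11, the cystine transporter of system xc-, was at 9.39, 9.39 and 9.52 on control arrays and at 8.57, 8.56 and 8.41 on Six2 arrays. Its difference of -0.92 (SE 0.094, limma adjusted p = 0.00175) became -1.29 with the median of chromosome 3 subtracted. Both falls held in every alternative. Slc1a4, a transporter of alanine, serine and cysteine, fell by 0.46 (limma adjusted p = 0.0207), a call lost in 7 of 15 alternatives. The arginine and lysine transporter Slc7a1 rose (0.40, limma adjusted p = 0.0227), a call lost in 8 of 15. Of 12 cytosolic tRNA synthetases, many of which ATF4 is known to induce, 0 rose and 1 fell, with a median of 0.010. The fall was that of Yars (-0.52, limma adjusted p = 0.0250), lost in 9 of 15 alternatives.

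**Figure D5:**
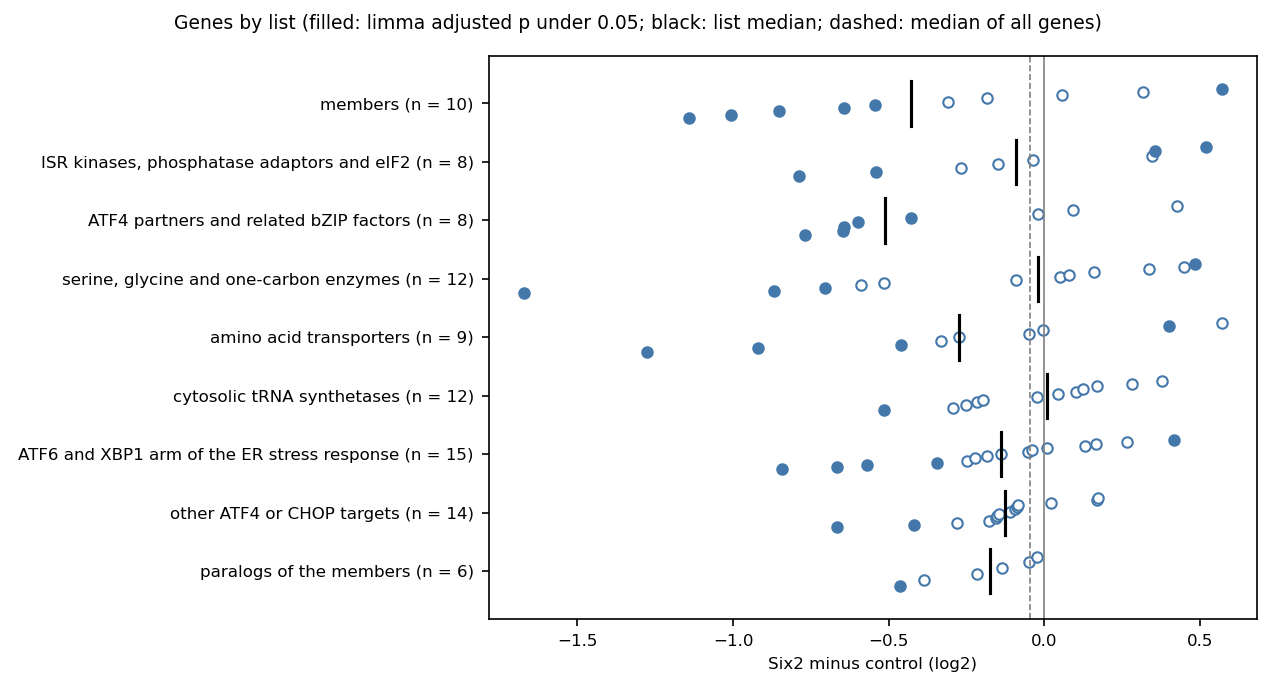
Difference of each gene, Six2 minus control on the log2 scale (horizontal axis), in the 10 members and 8 related lists, with filled points for genes that passed, a black line for the list median and a dashed line for the median of all genes (-0.046). The medians run from -0.51 for the ATF4 partners to 0.010 for the tRNA synthetases.

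In the ATF6 and XBP1 arm of the response to unfolded protein, which runs beside the PERK arm, 1 of 15 genes rose and 4 fell, with a median of -0.14. Sdf2l1, an endoplasmic reticulum chaperone cofactor, fell from 10.97, 10.88 and 10.85 to 9.98, 10.07 and 10.12 (-0.84, SE 0.090, limma adjusted p = 0.00202). Syvn1, the ligase HRD1 of protein degradation at the endoplasmic reticulum, fell by 0.66 (limma adjusted p = 0.0111), and Ern1, which encodes the sensor IRE1, fell by 0.57 (limma adjusted p = 0.0141). These 3 falls held in every alternative, and the remaining one, Dnajc3 (-0.34, limma adjusted p = 0.0425), named because the list held only 4, was lost in 10 of 15. Hspa5, the chaperone BiP and a common marker of this arm, was at 12.27, 12.21 and 12.24 on control arrays and at 12.27, 12.28 and 12.20 on Six2 arrays. The groups overlapped, with a difference of 0.0092 (95% confidence interval -0.18 to 0.20, limma adjusted p = 0.958). Atf6 rose (0.42, limma adjusted p = 0.0379), a call lost in 9 of 15 alternatives. It lies on chromosome 1, and its sign turned, to -0.021, with that chromosome's median subtracted (limma adjusted p = 0.921).

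Of 14 other targets of ATF4 or CHOP, 0 rose and 2 fell, with a median of -0.13. These were Bcl2l11, which encodes the pro-apoptotic protein BIM and is a known CHOP target (-0.66, SE 0.11, limma adjusted p = 0.0103), and the angiogenic factor Vegfa (-0.42, limma adjusted p = 0.0231). The call of Bcl2l11 held in every alternative. That of Vegfa was lost in 7 of 15, among them the replicate block and 5 of the 6 settings that leave out an array, and Vegfa, on chromosome 17, was at -0.16 with the chromosome median subtracted (limma adjusted p = 0.323). Only 9 of these 14 genes had a control mean above 6, and RMA tends to compress folds of dim genes. Of 6 paralogs of the members, 0 rose and 1 fell. The sestrin Sesn3 fell by 0.46 on the log2 scale (limma adjusted p = 0.0210), a call lost in 6 of 15 alternatives, while Sesn1 (-0.38), Trib2 (-0.21), Chac2 (-0.14), Ddit4l (-0.049) and Trib1 (-0.022) did not pass.

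Correlations between arrays over genes, which are not independent replicates, were 0.992 to 0.994 within groups and 0.983 to 0.987 between them. Six2 itself was dim and did not pass, at 3.52 ± 0.23 (SD, n = 3) in control and 3.86 ± 0.23 (SD, n = 3) in Six2 arrays (limma adjusted p = 0.215). This gene value thus gives little check of the labels. It is a median, which can hide a rise confined to some probe sets, and single Six2 probe sets are not given here. Cdh1, the E-cadherin gene that the study concerns, was lower by 3.16 (limma adjusted p = 6.56e-05). Among markers of mammary epithelium, Krt8 (12.33 in control arrays), Krt18 (11.74) and Gata3 (9.79) were bright, while 6 of 10 had a control mean of 6 or less, among them Epcam and Krt14. Of the 10, Krt8, Krt18 and Cdh1 fell, and Gata3 differed by 0.036 and did not pass. As a mean over the list, the epithelial markers ranged from 6.55 to 6.82 in control and from 6.03 to 6.27 in Six2 arrays. Without Cdh1 the mean over the other 9 was 6.60 in control and 6.38 in Six2 arrays. The fibroblast markers ranged from 4.41 to 4.57 and from 4.25 to 4.50, the leukocyte markers from 3.96 to 4.10 and from 3.83 to 3.89, and the endothelial markers from 3.15 to 3.39 and from 3.12 to 3.16. Of these lists, 1 of 7 fibroblast markers (Lum), 2 of 6 leukocyte markers (Ptprc and Adgre1) and 0 of 5 endothelial markers (0 also at an unadjusted p under 0.05) fell by limma, and none rose. The control means of those that fell were low, at 2.63 for Lum, 4.41 for Ptprc and 3.59 for Adgre1. Only Pdgfra (6.89) and Cd68 (7.27) had a control mean above 6. They did not pass, at -0.13 (limma adjusted p = 0.378) and -0.56 (limma adjusted p = 0.0851). The part of these shifts in the results above was not tested.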

How the data were processed

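The 6 arrays held total RNA of 4TO7 cells, 3 per group, and the labels gave groups and replicate numbers. The labels name no separate cultures, so a p-value reflects only how these arrays vary, possibly for technical reasons, and the number of arrays limits the precision. No scan dates were used, and any batch aligned with the groups cannot be told apart from them. The deposited values are log2 RMA values, and the tool named is Affymetrix Power Tools, per the submitters' processing notes. No version is given for either. RMA equalises the distributions of the arrays, so a change in total RNA would not show, and it tends to compress folds of dim genes.

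Of the rows, 213361 had 1 gene symbol, 5107 several and 23108 none in the platform annotation. Of the symbols, 18496 were in RefSeq (GRCm38.p6) as given, 2354 were updated through a synonym and 43 were not found. Genes, as medians over probe sets, and single probe sets were tested with limma 3.58.1 (lmFit, eBayes, two-sided) in R 4.3.3, with Benjamini-Hochberg adjustment over all genes or rows. The step was tested on simulated data. Unequal change was tested on each probe set minus the mean of the others of its gene, with Simes p-values.

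The members, the lists and the naming rule (all members, Six2, Cdh1, and up to 3 genes per direction and list by p) were chosen with earlier results of these data known. List genes that did not pass were named outside this rule, for their role. No list was tested as a whole. Alternatives took the mean over probe sets or the brightest one, a filter that drops dim rows (up to the 30th percentile), quantile normalization, centring, chromosome medians of genes with a mean above 6 subtracted, a replicate block, each array left out, trend and robust variance, no moderation, and a narrower motif.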

Additional observations from a re-analysis of the deposited data

Results flagged for a closer look

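The probe set 10366885, whose annotation names both Ddit3 and Mars, was not used for Ddit3, and it gave a signal above that of the control arrays. It was at 6.10, 6.01 and 6.15 on control arrays and at 6.75, 6.94 and 6.92 on Six2 arrays. Six2 minus control was thus 0.78, with an SE of 0.12 (limma adjusted p = 0.0388 over all rows). Mars, under its current symbol Mars1, encodes the methionyl tRNA synthetase, and its own gene value differed by 0.10 (limma adjusted p = 0.563). Which of the genes the signal of this probe set comes from was not tested.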

How the results depend on the processing

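Of the 10 genes 6 were called, 1 higher and 5 lower, and over the 15 alternatives between 2 and 7 were. Trib3 was called lower in every alternative and Atf4 and Sesn2 in none. The sign of Atf4 turned with the mean over probe sets (-0.081), the brightest probe set (-0.20) and dim rows left out (-0.094), and that of Phgdh turned with chromosome medians subtracted (-0.053). Phgdh (0.32) lay below the median of chromosome 3 (0.37), and 3 of the 5 Atf4 probe sets were below 0. Why the Atf4 probe sets differed in sign, and what lay behind the chromosome median, was not tested. With the brightest probe set, 2 of the 10 genes were called, 0 higher and 2 lower, and 873 of all genes were higher. With chromosome medians subtracted, 0 of the 10 and 775 of all genes were higher. Without variance moderation, 0 of the 10 were higher. With the mean over probe sets, 4858 of all genes were called, 2311 higher and 2547 lower, against 3068, 1396 and 1672 as reported. Leaving out each array in turn gave 4 to 6 of the 10 genes called, 0 to 2 higher and 4 to 6 lower, 0 to 2 member probe sets lower, and 1565 to 2447 of all genes called, 679 to 1078 higher and 886 to 1369 lower. With TGATGCAA only, 1 gene had a promoter match, against 3.

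Deviations of same-numbered arrays from their group means correlated at -0.00635, -0.00842 and -0.0537, so no shared deviation was seen. These correlations cannot show whether same-numbered arrays were cultured or processed together, and the labels do not state it. With the replicate block, 0 of the 10 genes were higher (Ddit3, limma adjusted p = 0.0712), 0 member probe sets were lower, and 1828 of all genes were called, 793 higher and 1035 lower.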

Other observations

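Another 2 probe sets named a member together with a further gene and were left out of the comparisons. The probe set 10562910, annotated to Atf5 and Nup62-il4i1, was at 10.14, 9.98 and 10.07 on control arrays and at 9.47, 9.39 and 9.43 on Six2 arrays. Its difference of -0.63 just missed the threshold over all rows (limma adjusted p = 0.0525). The probe set 10445893, annotated to Phgdh and Gm9210, differed by -0.11 and did not pass (limma adjusted p = 0.796).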
